A study of Mus musculus with 6 samples.

Results

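RNA levels of imprinted genes that act on growth were compared between mouse embryonic stem cells given a short hairpin RNA (shRNA) against the chromatin remodeller Chd1 and cells given a control vector. The genes were chosen by name: Igf2, Zdbf2, Dlk1, Peg3 and Mest, which are expressed from the paternal allele, and H19, Phlda2, Meg3, Grb10 and Cdkn1c, which are expressed from the maternal allele. The array held 20 probes annotated to 9 of these 10 genes, among 45281 probes in all. The annotation table used here paired no probe with H19, so H19 was not analysed. The other 9 genes had 1 to 4 probes each, 12 for the paternally and 8 for the maternally expressed genes. A probe was tested when its detection p-value was under 0.05 on at least 3 of the 6 arrays, which 12 of the 20 probes met, for 8 genes. All 3 Meg3 probes missed that filter.

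The study compared 3 Chd1 shRNA samples with 3 control samples, each on 1 array of the same Illumina BeadChip. Both groups were embryonic stem cells grown in leukemia inhibitory factor and 15% serum on embryonic fibroblasts whose division had been stopped with mitomycin C. Both were electroporated with pHYPER vectors and selected in puromycin for 48 h from 24 h after electroporation. The stem cell line, its strain and the content of the control vector were not given in the sources used here. Nor was it stated whether replicates were grown apart, so the p-values rest on a spread that may be technical. The 3 arrays of a group lay beside each other on the chip, so chip position and group cannot be told apart.

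Genomic imprinting is the expression of a gene from only 1 parental allele, set by DNA methylation that differs between egg and sperm and is then maintained in the embryo. Imprinted genes lie in clusters under shared control regions. In mouse, paternally expressed members such as Igf2 tend to promote fetal growth, and maternally expressed members such as Grb10, Phlda2 and Cdkn1c tend to restrain it. The arrays read total RNA, so no value here says which allele it came from.

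The zinc finger protein ZFP57 recognises the hexamer TGCCGC when it is methylated, at many imprinting control regions. The hexamer was searched on both strands in the 250 bases before each annotated transcript start in RefSeq (GRCm38.p6), because the starts of some of these genes lie in such regions. RefSeq windows were matched for 8 of the 10 genes, 16 windows in all. The hexamer was present in 4 of these 16 windows, belonging to Zdbf2, Mest and Meg3, and in 8.68% of 32851 windows of all genes. Below are the matching windows, 5′ to 3′ on the gene's strand with the hexamer or its reverse complement in capitals. A second Mest window, shifted by a few bases, also matched and is not printed. The Phlda2 window, which held no match, is shown because Phlda2 had the lowest log2 difference of the 8 genes tested. No probe reads these stretches, and the arrays say nothing of binding or methylation there.
Zdbf2, chr1:63200108-63200357, plus strand: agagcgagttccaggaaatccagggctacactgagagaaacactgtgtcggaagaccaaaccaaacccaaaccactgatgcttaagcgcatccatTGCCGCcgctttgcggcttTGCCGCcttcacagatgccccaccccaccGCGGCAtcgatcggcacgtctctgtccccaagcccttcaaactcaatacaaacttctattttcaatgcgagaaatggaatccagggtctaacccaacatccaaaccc
Mest, chr6:30737800-30738049, plus strand: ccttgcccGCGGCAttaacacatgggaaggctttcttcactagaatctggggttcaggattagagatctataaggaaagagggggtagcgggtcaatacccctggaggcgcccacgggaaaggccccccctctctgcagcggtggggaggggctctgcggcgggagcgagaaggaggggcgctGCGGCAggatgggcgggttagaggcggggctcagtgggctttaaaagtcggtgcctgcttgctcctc
Meg3, chr12:109540746-109540995, plus strand: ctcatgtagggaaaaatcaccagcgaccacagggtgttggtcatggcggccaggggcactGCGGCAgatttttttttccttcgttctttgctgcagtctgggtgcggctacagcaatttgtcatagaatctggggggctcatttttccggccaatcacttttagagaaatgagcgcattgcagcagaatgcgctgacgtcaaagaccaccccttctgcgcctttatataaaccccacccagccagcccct
Phlda2, chr7:143502525-143502774, minus strand: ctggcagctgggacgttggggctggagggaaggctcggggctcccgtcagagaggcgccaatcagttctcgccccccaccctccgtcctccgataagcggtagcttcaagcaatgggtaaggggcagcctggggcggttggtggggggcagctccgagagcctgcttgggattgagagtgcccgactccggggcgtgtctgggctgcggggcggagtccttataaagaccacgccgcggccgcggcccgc
The Zdbf2 window held 3 matches and the Mest window 2, a number of at least 2 that 0.874% of all windows reached. The Meg3 window held 1 match. The Phlda2 window held 21 CG dinucleotides, against 13 in the Zdbf2, 14 in the Mest and 10 in the Meg3 window and a median of 6 over all windows. The other Zdbf2 start had 26 CG dinucleotides and no match. Of the Igf2, Dlk1, Peg3 and Grb10 windows none matched, and their CG counts ran from 1 at an Igf2 start to 40 at a Grb10 start.

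The arrays detected 16285 to 17391 probes in Chd1 shRNA samples and 15663 to 15925 in control samples. Of 26 pluripotency markers, 24 were tested, with a median log2 difference (Chd1 shRNA minus control, of normalized log2 intensities) of -0.36. The brightest Chd1 probe averaged 5.75 ± 0.39 in Chd1 shRNA and 7.83 ± 0.96 in control arrays (log2 intensity, SD, n = 3 each). Its log2 difference of -2.09 (SE 0.43) had an adjusted p of 0.210 by limma, and for 3 of the 4 tested Chd1 probes all Chd1 shRNA arrays lay below all control arrays. With 3 arrays against 3, an exact permutation test could not go below 0.1. Of all 16018 tested probes, 0 (0%) reached an adjusted p under 0.05 by limma, while 1664 had an unadjusted p under 0.05 (10.4%).

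None of the 8 imprinted growth genes reached an adjusted p under 0.05 by limma, so no change is called for any of them. Their log2 differences went both ways within each parental class, from -0.86 for Zdbf2 to 1.12 for Igf2 among the paternally and from -0.87 for Phlda2 to 0.45 for Grb10 among the maternally expressed genes. Values were positive in 4 and negative in 4, where 50.7% of the 9507 genes tested were positive. At an unadjusted p under 0.05, Dlk1 was higher and Zdbf2 and Phlda2 were lower, 3 of 8 genes, beside 11.1% of all genes (4.78% higher and 6.3% lower in Chd1 shRNA). In Dlk1, Zdbf2 and Phlda2 the groups also did not overlap, which held for 16.4% of all genes (7.03% higher and 9.38% lower in Chd1 shRNA). The median of the absolute log2 difference was 0.60 over the 8 genes and 0.22 over all genes tested. These genes were listed together with earlier results of the same arrays known, so the excess over the background is a description.

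**Figure D1:**
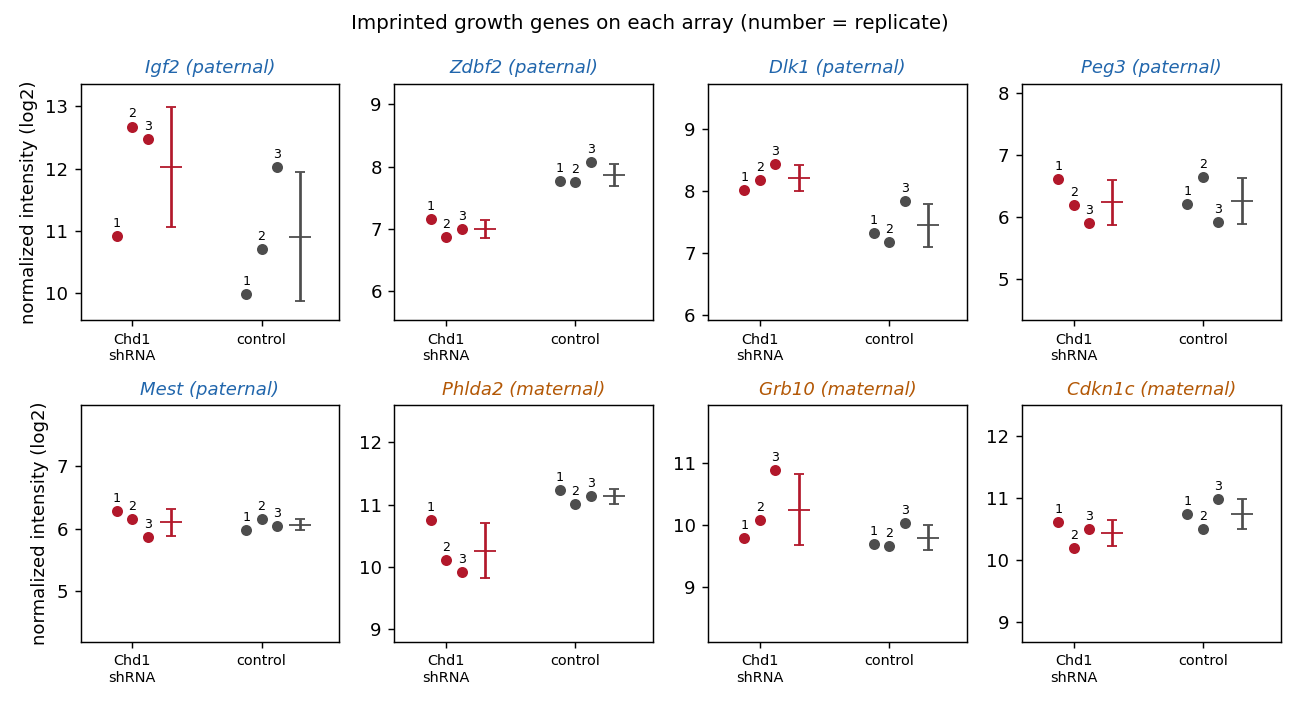
Normalized log2 intensity (vertical axis, of equal span in every panel) of the probe representing each gene on the 3 Chd1 shRNA arrays (red, left) and the 3 control arrays (grey, right), numbered by replicate, with the group mean and SD beside the points. Zdbf2, Dlk1 and Phlda2 have groups that do not overlap, whereas Igf2 spreads over more than 2 log2 units among the controls.

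Igf2, the fetal growth factor that signals through the IGF1 receptor, had the largest log2 difference and the widest spread within groups. Its single probe, annotated to the reference mRNA, read log2 intensities of 10.92, 12.68 and 12.48 in Chd1 shRNA replicates 1, 2 and 3, against 9.98, 10.71 and 12.03 in control replicates 1, 2 and 3. The groups overlapped: control replicate 3 lay above Chd1 shRNA replicate 1. The means were 12.03 ± 0.96 in Chd1 shRNA and 10.91 ± 1.04 in control arrays (SD, n = 3 each), a 2.17-fold higher mean in Chd1 shRNA. The log2 difference of 1.12 (SE 0.57, 95% interval -0.17 to 2.41) had an adjusted p of 0.518 by limma. It was 0.66 without control replicate 1 and 1.68 without control replicate 3, and 1.67 without Chd1 shRNA replicate 1.

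Dlk1, a transmembrane protein related to Notch ligands that holds back fat cell differentiation, was higher on every Chd1 shRNA array on both of its probes. The brighter probe read 8.01, 8.17 and 8.43 in Chd1 shRNA replicates 1, 2 and 3 and 7.33, 7.17 and 7.83 in control replicates 1, 2 and 3. The groups did not overlap, although control replicate 3 came within 0.2 of Chd1 shRNA replicate 1. The log2 difference was 0.76 (SE 0.22), a 1.69-fold higher mean in Chd1 shRNA, with an adjusted p of 0.325 by limma. The dimmer probe averaged 7.09 ± 0.11 in Chd1 shRNA and 6.68 ± 0.14 in control arrays (n = 3 each), a log2 difference of 0.41 (adjusted p = 0.476 by limma). Both probes thus had groups that did not overlap, with a smaller difference on the dimmer one.

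Zdbf2 encodes a zinc finger protein whose paternal expression supports growth of mouse pups. One of its 2 probes was tested. It read 7.15, 6.87 and 6.99 in Chd1 shRNA replicates 1, 2 and 3, against 7.77, 7.76 and 8.07 in control replicates 1, 2 and 3. Every Chd1 shRNA array lay below every control array, and the replicates of each group stayed close, with SDs of 0.14 in Chd1 shRNA and 0.18 in control arrays. The mean was 55.0% of control, a log2 difference of -0.86 (SE 0.18, 95% interval -1.28 to -0.45). Its adjusted p of 0.217 by limma was the smallest of the 8 genes, and its rank by p was 82 among the 16018 probes. The other Zdbf2 probe, annotated to the same reference mRNA, was detected on 0 arrays and read 4.26 ± 0.054 in Chd1 shRNA and 4.28 ± 0.090 in control arrays (n = 3 each).

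Mest, a member of the alpha/beta hydrolase fold family, had 3 tested probes that disagreed in size. The probe that represents the gene (ILMN_2846904) read 6.28, 6.15 and 5.86 in Chd1 shRNA replicates 1, 2 and 3 and 5.98, 6.16 and 6.05 in control replicates 1, 2 and 3, with overlapping groups and a log2 difference of 0.039 (SE 0.18, adjusted p = 0.955 by limma). Probe ILMN_2642417, almost as bright, read 6.43, 6.06 and 6.47 in Chd1 shRNA against 5.60, 5.97 and 5.93 in control replicates 1, 2 and 3, a log2 difference of 0.48 (SE 0.20, adjusted p = 0.455). Probe ILMN_2642418 was detected on 3 Chd1 shRNA arrays and 1 control array, and had a log2 difference of 0.62 (SE 0.22, adjusted p = 0.407). On ILMN_2642417 every Chd1 shRNA array lay above every control array, and on ILMN_2846904 it did not. The groups of ILMN_2642418 did not overlap either. That probe met the detection filter through the Chd1 shRNA arrays, where it was higher, so its separation adds no support. All 3 probes are annotated to the same reference mRNA, and which exon each reads was not analysed here.

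Peg3, a zinc finger transcription factor active in placenta and brain, gave values of both signs under other processing. Only 1 of its 4 probes was tested. It read 6.61, 6.19 and 5.90 in Chd1 shRNA replicates 1, 2 and 3 and 6.20, 6.65 and 5.92 in control replicates 1, 2 and 3, with a log2 difference of -0.020 (SE 0.25, 95% interval -0.60 to 0.56, adjusted p = 0.983 by limma). The interval leaves room for differences of over 1.4-fold either way. The other 3 Peg3 probes were detected on 0 arrays.

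Among the maternally expressed genes, Phlda2 stood lowest in Chd1 shRNA relative to control. It encodes a small pleckstrin homology domain protein that limits placental growth in mouse. Its probe read 10.75, 10.11 and 9.92 in Chd1 shRNA replicates 1, 2 and 3, against 11.24, 11.01 and 11.14 in control replicates 1, 2 and 3. The groups did not overlap, and Chd1 shRNA replicate 1 was nearest to the controls. The mean was 54.7% of control, a log2 difference of -0.87 (SE 0.24, 95% interval -1.41 to -0.33), with an adjusted p of 0.297 by limma.

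Cdkn1c, the cyclin-dependent kinase inhibitor p57, lies close to Phlda2 and had a smaller difference of the same sign. It read 10.60, 10.19 and 10.50 in Chd1 shRNA replicates 1, 2 and 3 and 10.74, 10.50 and 10.98 in control replicates 1, 2 and 3. The groups overlapped, since control replicate 2 lay below Chd1 shRNA replicate 1. The log2 difference was -0.30 (SE 0.20, 95% interval -0.77 to 0.16, adjusted p = 0.598 by limma).

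Grb10, an adaptor that binds the insulin and IGF1 receptors and dampens their signal, had a positive value. Its bright probe, annotated to the reference mRNA, read 9.79, 10.07 and 10.88 in Chd1 shRNA replicates 1, 2 and 3 and 9.70, 9.66 and 10.03 in control replicates 1, 2 and 3. The groups overlapped, and Chd1 shRNA replicate 3 alone stood clear of all other arrays. The log2 difference of 0.45 (SE 0.28, adjusted p = 0.582 by limma) was 0.13 without Chd1 shRNA replicate 3. A probe annotated to a cDNA clone of the gene was dim, detected on 3 Chd1 shRNA and 2 control arrays, and had a log2 difference of 0.13 (SE 0.27). The remaining probe was detected on 0 arrays.

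Meg3, a long noncoding RNA made from the maternal copy of the Dlk1 region, was at background on every array. Its 3 probes were detected on 0 Chd1 shRNA and 0 control arrays, with group means between 4.32 and 4.39 in Chd1 shRNA and between 4.27 and 4.43 in control arrays. The 8 probes of these genes that were not tested read log2 intensities of 4.19 to 4.80, and their smallest detection p on any array was 0.0633. A difference in Meg3 was not detectable at this signal.

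**Figure D2:**
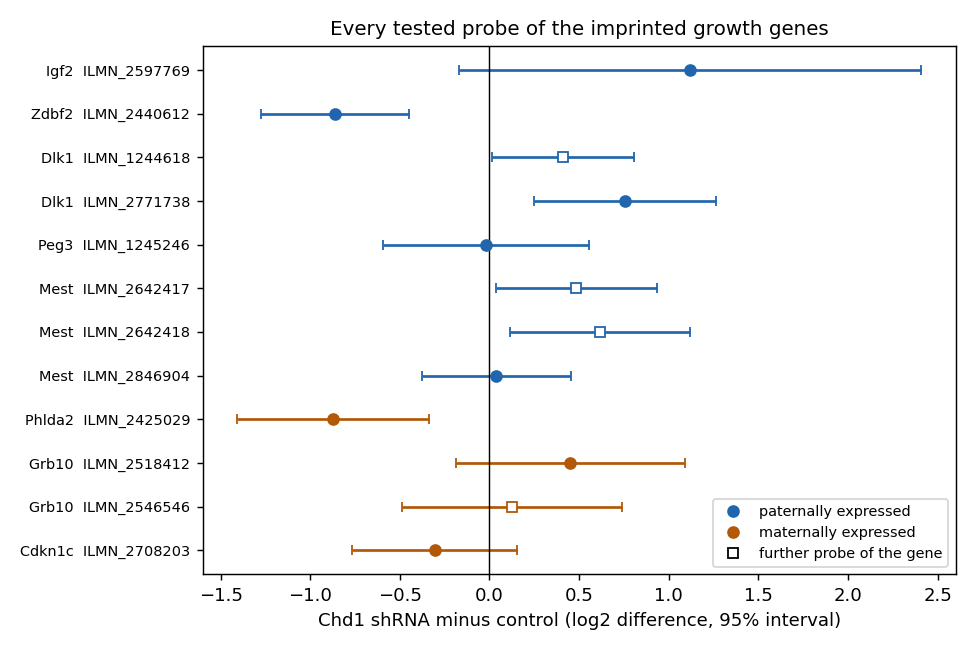
Log2 difference (Chd1 shRNA minus control, horizontal axis) with its 95% interval from limma for the 12 tested probes, paternally expressed genes in blue and maternally expressed genes in orange. Filled circles represent the gene and open squares are further probes. The intervals of Zdbf2 and Phlda2 lie below 0, those of both Dlk1 probes and 2 of 3 Mest probes above 0, before adjustment for the number of probes tested. Of these Mest probes, ILMN_2642418 met the detection filter through the Chd1 shRNA arrays.

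The parental classes were then set against each other on each array. Each gene's log2 intensity was first centred on its mean over the 6 arrays. The average of these centred values over the 5 paternally expressed genes was -0.015, 0.20 and 0.12 in Chd1 shRNA replicates 1, 2 and 3, against -0.36, -0.12 and 0.17 in control replicates 1, 2 and 3. The same average over the 3 maternally expressed genes was -0.052, -0.31 and -0.0011 in Chd1 shRNA and 0.13, -0.046 and 0.28 in control replicates 1, 2 and 3. Each class had overlapping groups.

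Paternal minus maternal, the average was 0.037, 0.51 and 0.13 in Chd1 shRNA and -0.48, -0.075 and -0.11 in control replicates 1, 2 and 3, so on this measure the groups did not overlap. The group means were 0.22 ± 0.25 in Chd1 shRNA and -0.22 ± 0.23 in control arrays (SD, n = 3 each), a difference of 0.45 on the log2 scale. That difference rested on a few genes. It was 0.22 without Igf2 and 0.13 without Phlda2, and 0.72 without Zdbf2 and 0.79 without Grb10, whose values run against their classes. The groups overlapped on leaving out any 1 of 4 of the 8 genes: Igf2, Phlda2, Dlk1 (0.31) or Peg3 (0.51). The 2 classes themselves overlapped: Zdbf2 was nearly as low as Phlda2, and Grb10 stood above Peg3 and Mest. The median log2 difference was 0.039 over the 5 paternally and -0.30 over the 3 maternally expressed genes, beside 0.0057 over all genes tested. No p is given for these scores, since the genes were listed with results of these arrays known.

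**Figure D3:**
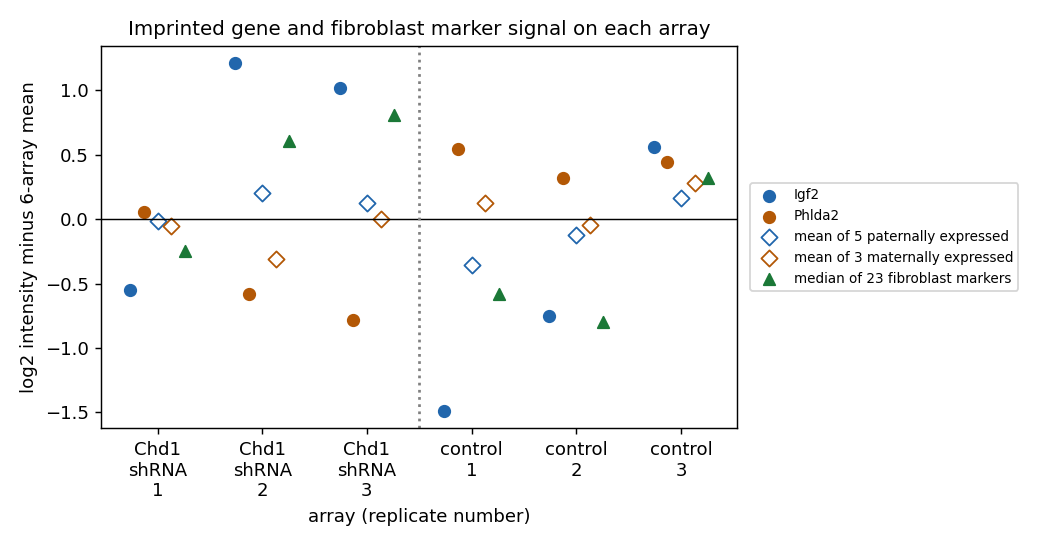
Log2 intensity minus the 6-array mean (vertical axis) on each array for Igf2, Phlda2, the means of the 5 paternally and 3 maternally expressed genes, and the median of 23 fibroblast markers, with Chd1 shRNA arrays left of the dotted line and control arrays right of it. Igf2 and the fibroblast markers are both high on Chd1 shRNA replicates 2 and 3 and on control replicate 3.

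The cultures held embryonic fibroblasts as feeders, and their markers varied among the arrays. Of 30 fibroblast markers, 23 were tested, 19 were detected on all 6 arrays, and the defining genes Col1a2, Col3a1 and Postn were among those below the filter. The summed normalized intensity of the 23 ran from 22876 to 45474 in Chd1 shRNA and from 13476 to 34887 in control arrays. Their median log2 difference was 0.72, with positive values in 22 of 23 and 0 past an adjusted p of 0.05 by limma. Dcn had a log2 difference of 1.45 (SE 0.49), Timp2 of 1.43 (SE 0.56) and Lox of 1.30 (SE 0.52).

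Igf2 was high on the same 3 arrays as these markers. The median of the centred fibroblast markers was -0.25, 0.61 and 0.81 in Chd1 shRNA replicates 1, 2 and 3 and -0.58, -0.80 and 0.32 in control replicates 1, 2 and 3. The centred Igf2 values were -0.55, 1.21 and 1.02 in Chd1 shRNA and -1.49, -0.75 and 0.56 in control replicates 1, 2 and 3. A Pearson r above 0.9 with Igf2 over the 6 arrays was found for 11 of 23 fibroblast markers, 0 of 24 pluripotency markers and 5.92% of 9506 genes. For Dlk1 it was found for 6 of 23 fibroblast markers and 3.12% of genes, and for Grb10 for 1 and 1.61%. It was found for 0 fibroblast markers for Zdbf2 (2.08% of genes), Peg3 (1.22%), Mest (0.905%), Phlda2 (3.83%) and Cdkn1c (1.08%). At shares this low, 0 of 23 sets none of these genes apart. Negative r was not counted, so a gene that fell as these markers rose would also have 0. Phlda2 had an r above 0.9 with 5 of 24 pluripotency markers and 3.83% of all genes, and Cdkn1c with 4 of 24 and 1.08%. In these bulk samples, more cells of a type and more RNA per cell cannot be told apart.

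The fibroblast score of an array was the mean log2 intensity of the 23 tested markers. It was 8.13, 9.05 and 9.17 in Chd1 shRNA and 7.79, 7.56 and 8.74 in control replicates 1, 2 and 3. With this score as a covariate, the log2 difference of Igf2 was -0.022, that of Grb10 0.058 and that of Dlk1 0.42. Those of Zdbf2 and Phlda2 were -0.90 and -0.63 in the same fit, and Cdkn1c stood at -0.38. None of the 8 genes passed in that fit, whose adjusted p-values by limma were 0.415 or more. The score averaged higher in the Chd1 shRNA group, so the fit separates group from score with only 6 arrays.

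**Figure D4:**
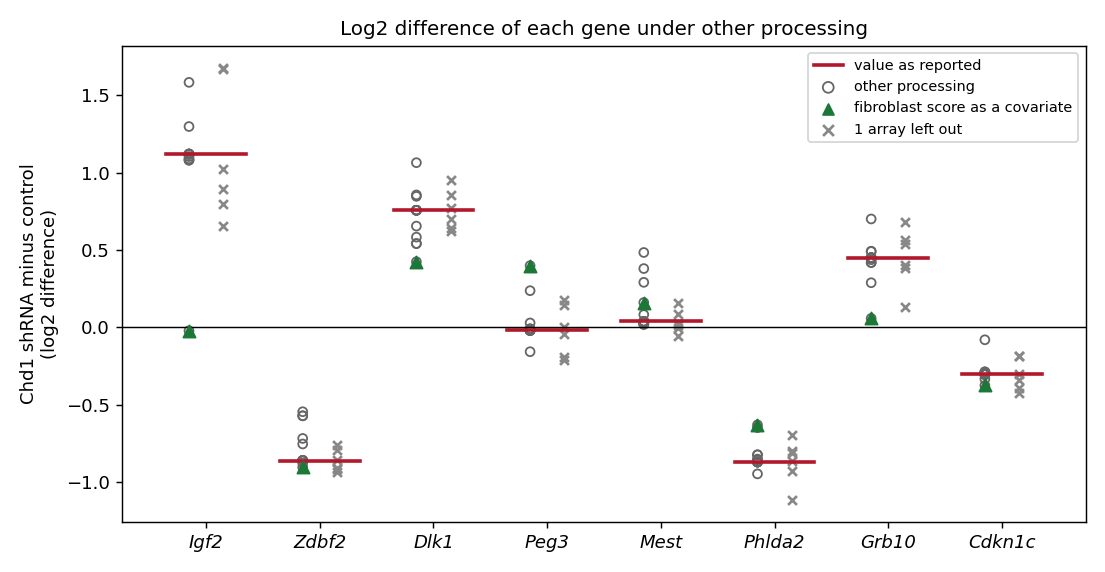
Log2 difference (Chd1 shRNA minus control, vertical axis) of each gene as reported (red bar), under other processing (open circles), with the fibroblast score as a covariate (green triangles) and with 1 array left out (crosses). Zdbf2 and Phlda2 stay below 0 and Dlk1 above 0 throughout, while Igf2 lies between -0.022 and 1.68.

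Genes whose pattern over the 6 arrays was most like that of Igf2 were Dcbld2, Gng10 and Smpdl3a, each with a Pearson r of 0.997 or more (0.998, 0.998 and 0.997). Their log2 differences were 0.53, 0.57 and 0.55. Nearest to Phlda2 were Tdrd12 (r of 0.996), Rnf208 (0.992) and Fads2 (0.992), with log2 differences of -0.73, -0.56 and -0.63. These are the highest of 9275 values each, with clone-style names left out, over 6 arrays that share their normalization. Of those 9275, 551 genes passed an r of 0.9 with Igf2 and 359 with Phlda2.

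Imprinted neighbours of the growth genes gave values from the same arrays, and those that are named here by position were picked after their values had been seen. Phlda2 and Cdkn1c belong to the Kcnq1 cluster of chromosome 7, where 8 of 12 listed genes were tested and 4 had positive and 4 negative log2 differences. The 3 adjacent maternally expressed genes Cdkn1c, Slc22a18, a transporter gene, and Phlda2 all had negative values, -0.30, -0.60 (SE 0.28) and -0.87. The noncoding RNA Kcnq1ot1, which is made from the paternal allele and silences the cluster in cis, had a log2 difference of -0.15 (SE 0.20) near background. Toward both ends, Cd81 stood at 0.40, Tssc4 at 0.17, Nap1l4 at 0.26 and Osbpl5 at 0.38.

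Grb10 lies between Ddc and Cobl on chromosome 11, and both neighbours went the other way. Ddc, the aromatic amino acid decarboxylase, read 7.57, 7.56 and 7.77 in Chd1 shRNA and 8.35, 8.26 and 8.41 in control replicates 1, 2 and 3. Cobl, an actin nucleator, read 8.26, 8.16 and 8.54 in Chd1 shRNA and 9.26, 8.86 and 8.94 in control replicates 1, 2 and 3. For both the groups did not overlap. The log2 difference was -0.70 (SE 0.17, adjusted p = 0.261 by limma) for Ddc and -0.70 (SE 0.20, adjusted p = 0.297 by limma) for Cobl.

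In the Dlk1 region of chromosome 12, the other tested genes had values of both signs. Dio3, the deiodinase that inactivates thyroid hormone, had a log2 difference of 0.49 (SE 0.28), Rtl1 of -0.080 and the noncoding RNA Rian of -0.20 (SE 0.40). Usp29, which shares a control region with Peg3, stood at -0.28 (SE 0.21). Both Rtl1 and Usp29 were near background. Mean log2 intensities in Chd1 shRNA and control arrays were 4.70 and 4.78 for Rtl1 and 4.55 and 4.82 for Usp29.

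Imprinted genes outside the growth list showed no common direction. Of 29 further paternally expressed genes, 15 were tested, with 5 positive and 10 negative values and a median log2 difference of -0.080. Of 28 further maternally expressed genes, 14 were tested, with 7 positive and 7 negative values and a median of 0.073. None of the 29 tested passed an adjusted p of 0.05 by limma, and 5 had an unadjusted p under 0.05, beside 11.1% of all genes. With the fibroblast covariate the medians turned to 0.045 for the paternally and -0.16 for the maternally expressed genes, and with median scaling the paternal one was 0.037 and the maternal one 0.27. Without control replicate 2 the paternal median was 0.012. Many of them are imprinted only in some tissues. The largest paternally expressed values, beside Ddc and Dio3, were those of Ndn (0.67, SE 0.27), a growth suppressor of neurons, and the noncoding RNA Peg13 (0.52, SE 0.19). Peg13 was near background, with mean log2 intensities of 4.96 in Chd1 shRNA and 4.44 in control arrays. The largest maternally expressed ones, beside Cobl and Slc22a18, were Ppp1r9a, an actin-binding scaffold (-0.85, SE 0.24), and H13, the signal peptide peptidase (0.61, SE 0.33).

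The IGF and insulin pathway, through which Igf2 and Grb10 act, had 21 of 30 listed genes tested and 0 past the threshold, with 15 positive values and a median log2 difference of 0.17. That median was 0.057 with the mean of all kept probes of a gene, 0.086 with the fibroblast covariate and 0.39 with median scaling. The binding proteins Igfbp7, Igfbp4 and Igfbp5 had values of 1.09 (SE 0.65), 0.64 (SE 0.49) and 0.44 (SE 0.47), and the adaptor Irs2 had 0.44 (SE 0.24). All 3 binding proteins were high on control replicate 3 as Igf2 was: Igfbp7 read 8.75, 10.09 and 10.81 in Chd1 shRNA and 7.87, 8.31 and 10.20 in control replicates 1, 2 and 3. The receptors differed less, with 0.26 (SE 0.18) for Igf1r, which transmits the signal, and 0.40 (SE 0.22) for Igf2r, itself imprinted, which clears the ligand.

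The list of imprint maintenance and reading also holds genes of other steps of DNA methylation, such as Tet1 and Dnmt3l. Its genes had negative values in 14 of 15 tested, with a median log2 difference of -0.27 and 0 past the threshold. The median was 0.0092 with median scaling, -0.10 with the fibroblast covariate and -0.48 without Chd1 shRNA replicate 1. Among them Zfp42 (Rex1) stood at -0.78 (SE 0.27), the 5-methylcytosine oxidase gene Tet1 at -0.66 (SE 0.28), the methyltransferase gene Ehmt1 at -0.48 (SE 0.42) and Dnmt3l, the cofactor of de novo methylation, at -0.48 (SE 0.21). Dnmt3l read 12.87, 12.46 and 12.20 in Chd1 shRNA and 12.94, 12.98 and 13.03 in control replicates 1, 2 and 3, with no overlap. Zfp42 and Dppa3 are also pluripotency markers, and Dppa3 (-0.27) sets the median of the imprint list. The pluripotency list itself had a median of -0.36, with Tcl1 at -1.19 (SE 0.25), Nr5a2 at -1.01 and Sox2 at -0.79. The part of pluripotency in the values of the imprint list was not tested.

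**Figure D5:**
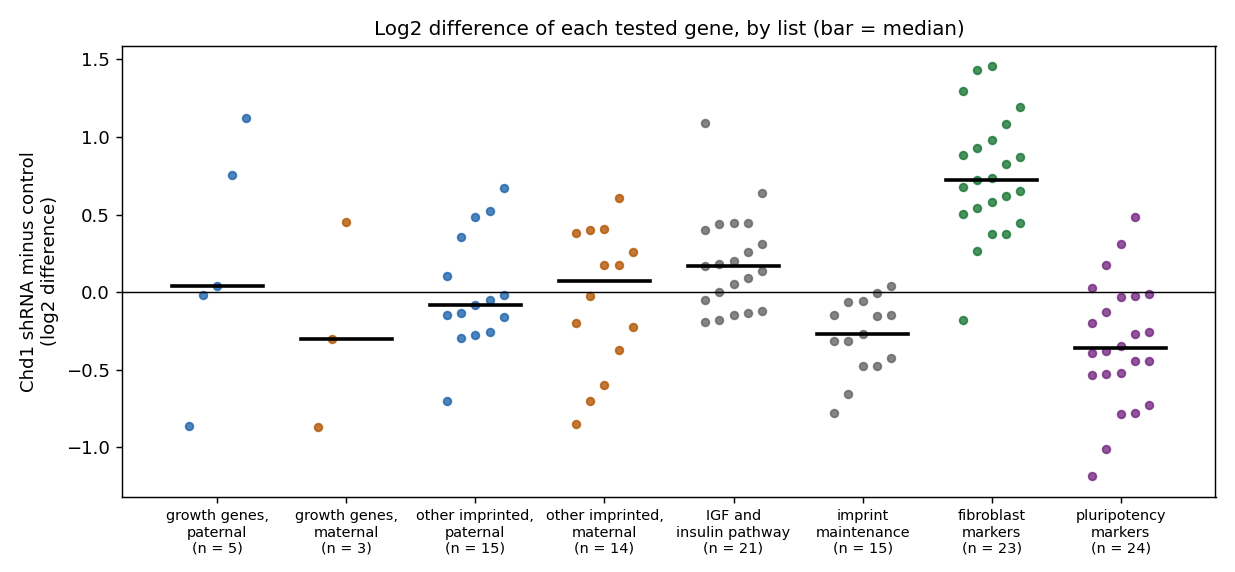
Log2 difference (Chd1 shRNA minus control, vertical axis) of each tested gene by list, with a bar at each list's median. Paternally and maternally expressed genes spread to both sides of 0. Fibroblast markers lie mostly above it (22 of 23) and genes of the imprint maintenance list mostly below it (14 of 15).

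Markers of other lineages that use imprinted growth genes were few on these arrays. Of 16 trophectoderm and placenta markers 7 were tested, with a median log2 difference of 0.25 and the largest value for Prl2c2 (1.16, SE 0.50), a prolactin family gene. Members of the other lists went both ways, and those named second were picked after their values were seen. For mesoderm 3 of 14 were tested (median 0.36), with Foxc1 at 1.05 and Bmp4 at -1.03. The summed intensity of these 3 ran from 601 to 773 in Chd1 shRNA and from 835 to 1409 in control arrays, without overlap. Most of that sum is Bmp4, with mean log2 intensities of 9.06 in Chd1 shRNA and 10.09 in control arrays. The sum thus follows Bmp4 rather than the list. For endoderm 6 of 14 were tested (median -0.017), with Lama1 at -1.37 and Dab2 at 0.71. Their summed intensity did not overlap either, 888 to 1005 in Chd1 shRNA and 1208 to 1363 in control arrays. Lama1, with mean log2 intensities of 7.60 in Chd1 shRNA and 8.97 in control arrays, is a large part of that sum. Of the 6 genes, 3 had positive and 3 negative log2 differences, so this sum does not stand for the list either. The sums of the trophectoderm and neural lists overlapped. For neural genes 4 of 12 were tested (median -0.23), with Sox21 at -1.17 and Nes at 0.66. No gene of these lists passed an adjusted p of 0.05 by limma. Prl2c2 and Foxc1 were highest on Chd1 shRNA replicates 2 and 3 and control replicate 3, where fibroblast markers were high too. Which cells their signal came from was not tested.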

How the data were processed

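Total RNA of 3 Chd1 shRNA and 3 control samples was measured on Illumina bead arrays. Groups follow the transfection label, and replicates were numbered in accession order, which pairs none. The deposited unnormalized table gives a linear intensity for each probe and sample, summarised with GenomeStudio per the submitters' processing notes, and a detection p-value per the file headers. A second deposited table of intensities processed by the authors, by a method not given in the sources used here, served as an alternative. Its columns rank probes as the unnormalized ones do (Spearman rho of 1). For the growth genes it gave almost the log2 differences found without background correction (Igf2 1.08 and Dlk1 0.54 in both). Those alternatives are therefore nearly the same.

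Background was corrected by normal-exponential convolution from the detection p-values (offset 16), followed by quantile normalization and log2 (neqc steps, limma 3.58.1, R 4.3.3). Background correction enlarges differences of dim probes, and a larger offset shrinks them. The log2 difference of Zdbf2 was -0.86 as reported, -0.57 without background correction and -0.72 with an offset of 50. Quantile normalization removes shifts of whole arrays. The 16018 probes detected (p under 0.05) on 3 or more arrays were kept and tested together with lmFit and eBayes, with Benjamini-Hochberg adjustment over all of them. All SEs, intervals and p-values of single probes come from this limma fit, which was tested on simulated data. A gene is represented by its brightest kept probe. The platform annotation listed 1 gene for 34885 probes, several for 18 and none for 10378. RefSeq identifiers changed 0 symbols. Levels are not compared between genes, since probes differ in brightness. Precision is limited by the number of arrays.

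The genes and lists were chosen with earlier results of these data known. Named beside the growth genes are the 4 largest absolute differences of each imprinted, pathway and maintenance list, the 3 largest of the fibroblast and pluripotency lists, the 1 largest of the other marker lists, Chd1, and the 3 genes most like the members with the largest difference in each direction. Genes outside this rule were chosen after their values were seen. The alternatives were another offset, no background correction, 2 scalings, 2 detection filters, an intensity trend with robust variance, array weights, the authors' table, 1 or averaged probes for each gene, a fibroblast covariate and leaving out each array.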

Additional observations from a re-analysis of the deposited data

How the results depend on the processing

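None of the 8 genes passed an adjusted p of 0.05 in the reported fit or in any of the 19 alternatives, where the smallest adjusted p by limma was 0.0926, for Zdbf2 with array weights. Zdbf2 (-0.93 to -0.55), Phlda2 (-1.12 to -0.63), Dlk1 (0.42 to 1.07), Grb10 (0.058 to 0.70) and Cdkn1c (-0.43 to -0.080) kept their sign in all 19. Both detection filters, the intensity trend with robust variance and 1 probe for each gene leave these log2 differences unchanged by design. Another probe for Mest also leaves them unchanged, so in those settings no sign could turn. Nor could averaging the kept probes change Zdbf2, Phlda2 or Cdkn1c, which have 1 kept probe each. The authors' table nearly repeated the values without background correction. Igf2 turned to -0.022 with the fibroblast covariate. Peg3 turned to 0.24 with median scaling, 0.028 with 75th percentile scaling and 0.40 with the fibroblast covariate, and ranged from -0.21 to 0.17 with 1 array left out. Mest ranged from -0.053 to 0.16 with 1 array left out, negative without control replicate 1 or Chd1 shRNA replicate 1.

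The median of the paternally expressed genes was 0.29 with median scaling, 0.38 with the mean of all kept probes of a gene and 0.48 with Mest read by probe ILMN_2642417, an alternative chosen after seeing the data, as was leaving out Igf2. Median scaling put the median of all genes at 0.22, so its values are relative to that shift. The count of probes past the threshold was 1 with array weights, 1 with median scaling and 31 (1 higher, 30 lower) with an intensity trend and robust variance. It was 0 in the reported fit and the other alternatives, and no probe representing a growth gene was ever among them. The cause of these moves was not tested. No paired analysis was possible because the labels give no replicate numbers that groups share. Of the 20 probes 8 lay at background, so changes in Meg3 could not be measured.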
